A study of Homo sapiens with 4 samples.

Results

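The Wnt amplifier genes examined here are 10 human genes that set how much Wnt signal a cell sends or receives: WLS, the R-spondin receptors LGR4, LGR5 and LGR6, the R-spondins RSPO1, RSPO2, RSPO3 and RSPO4, and the ubiquitin ligases ZNRF3 and RNF43. They are 10 of the 20090 protein-coding genes of the GENCODE 44 annotation on GRCh37. The list was chosen with measured values in view: WLS and LGR4 were selected on the rank of their sites among the 10 strongest of 5169 reproducible MEIS sites, and the other genes belong to the same pathway. The site of rank 10 had a −log10 p of 1318.35 and the site of rank 11 had 1300.84, so the threshold fell between close values. The site of WLS had rank 1 and that of LGR4 had rank 8. A site or peak was assigned to a gene when its summit, the base of highest enrichment, lay in the gene body or within 250 kb of either end. By this rule 11 of the 5169 reproducible sites belonged to the 10 genes, of which 6 lay at WLS, 2 at LGR4 and 3 at ZNRF3.

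Binding of MEIS1 and MEIS2, homeodomain transcription factors of the TALE class, was mapped by ChIP-seq, the sequencing of DNA recovered with an antibody from sheared chromatin. The cells were untreated hNSC, human neural stem cells from Gibco grown in serum-free medium on coated dishes. There were 2 MEIS ChIP samples and 2 Input samples, Input being chromatin that was not immunoprecipitated and that entered the values only through the peak calling of the authors. Both antibodies, anti-MEISa (K830) and anti-MEIS1 (K844), were mixed in each ChIP, so a peak does not say which MEIS protein was bound. No other treatment, genotype or cell type was present, no expression data were analysed here, and the identity of the cells was therefore not checked against marker genes. Replicate 1 held 36796 peaks and replicate 2 held 47449 peaks, and the read depth behind them is unknown. Reproducible sites were those that the authors kept by the irreproducible discovery rate (IDR), which asks whether peaks hold similar ranks in both replicates.

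Wnt proteins are lipid-modified signals that need the membrane protein Wntless, the product of WLS, to leave the cell that makes them. On the receiving cell, the ligases ZNRF3 and RNF43 mark Frizzled receptors for removal and so dampen the response. R-spondins bridge LGR4, LGR5 or LGR6 to these ligases, take the ligases off the surface and leave more Frizzled in place, which amplifies the response. LGR5 is widely known as a marker of cycling stem cells in the intestine, and Wnt signalling is a long-studied regulator of neural progenitor proliferation and patterning.

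The sequences at the centre of all 11 sites are given first, because whether a site holds the MEIS consensus is one of the features in which they differ. All are read from the plus strand of GRCh37, 5′ to 3′, with each copy of TGACAG, the MEIS consensus, or of its reverse complement CTGTCA in capitals. In WLS site 1 and ZNRF3 site 1, which hold no TGACAG within 500 bp centred on the summit, the capitals mark the shorter core GACAG near the summit. For the strongest site of WLS and of LGR4, 300 bases around the summit are shown, and for the others 80 bases. LGR4 site 2 and ZNRF3 sites 2 and 3 have neither near the summit and carry no capitals. Sites are numbered within each gene by their −log10 p.
WLS site 1, chr1:68606804-68607103: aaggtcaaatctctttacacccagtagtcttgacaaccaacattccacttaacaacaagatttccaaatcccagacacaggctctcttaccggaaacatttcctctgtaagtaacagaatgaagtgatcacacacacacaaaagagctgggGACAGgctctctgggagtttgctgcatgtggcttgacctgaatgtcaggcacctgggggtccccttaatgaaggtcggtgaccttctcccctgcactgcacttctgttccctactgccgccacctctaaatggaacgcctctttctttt
WLS site 2, chr1:68785611-68785690: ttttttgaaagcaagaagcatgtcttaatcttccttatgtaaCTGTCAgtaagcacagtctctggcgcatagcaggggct
WLS site 3, chr1:68321749-68321828: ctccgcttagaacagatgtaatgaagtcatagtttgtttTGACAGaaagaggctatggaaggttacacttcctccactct
WLS site 4, chr1:68759757-68759836: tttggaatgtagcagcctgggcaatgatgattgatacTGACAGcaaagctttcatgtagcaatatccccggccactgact
WLS site 5, chr1:68639132-68639211: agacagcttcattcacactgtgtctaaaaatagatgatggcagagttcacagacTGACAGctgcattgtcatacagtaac
WLS site 6, chr1:68831544-68831623: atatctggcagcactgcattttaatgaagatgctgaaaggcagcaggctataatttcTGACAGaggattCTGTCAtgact
LGR4 site 1, chr11:27466369-27466668: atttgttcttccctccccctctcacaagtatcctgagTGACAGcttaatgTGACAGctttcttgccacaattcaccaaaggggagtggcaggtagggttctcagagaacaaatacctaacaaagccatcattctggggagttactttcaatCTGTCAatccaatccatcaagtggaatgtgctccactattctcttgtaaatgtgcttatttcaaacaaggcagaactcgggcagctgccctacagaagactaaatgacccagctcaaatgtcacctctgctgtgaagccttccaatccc
LGR4 site 2, chr11:27482373-27482452: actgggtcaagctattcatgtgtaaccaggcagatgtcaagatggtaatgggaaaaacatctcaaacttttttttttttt
ZNRF3 site 1, chr22:29598757-29598836: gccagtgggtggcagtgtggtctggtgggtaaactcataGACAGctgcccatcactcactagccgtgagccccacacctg
ZNRF3 site 2, chr22:29499165-29499244: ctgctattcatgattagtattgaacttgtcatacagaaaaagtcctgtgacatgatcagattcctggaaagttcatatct
ZNRF3 site 3, chr22:29339237-29339316: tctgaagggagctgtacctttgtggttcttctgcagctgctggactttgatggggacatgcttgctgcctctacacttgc

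Of the 10 genes, 3 had at least 1 reproducible site within 250 kb, against 47.7% of all protein-coding genes. WLS and LGR4 entered the list for such a site, so nothing is read from this share. The gene body itself held a site at the same 3 genes, WLS, LGR4 and ZNRF3, with 5 sites in all. Among all protein-coding genes, 8.36% held one there. The sites for which WLS and LGR4 were chosen lie in their bodies, and the 8.36% covers genes of all lengths. Nothing is read from this comparison either. No site lay within 5 kb of the canonical transcription start site (TSS) of any of the 10 genes, where 2.40% of all protein-coding genes had one. All sites at these genes were therefore distal to the canonical start, with the nearest 11.9 kb inside LGR4.

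WLS held 6 sites, a number reached or passed by 0.836% of protein-coding genes, and the most crowded window of any gene held 17. None of the 200 protein-coding genes closest to WLS in body length had as many, their highest number being 5 and their median 1. The rank 1 site for which WLS was chosen is among the 6, so this standing is a description, and without that site WLS had 5, a number that 2 of the 200 genes reached. The density was 9.45 sites per Mb of window at WLS, 4.45 at ZNRF3 and 3.30 at LGR4, against 1.70 over the genome. The values of WLS and LGR4 include the sites for which these genes were chosen, so no excess over the genome is read from them. ZNRF3, with 3 sites, stood at the percentile 84.75 of its 200 genes of like length, which is the share with fewer sites plus 0.5 of the ties, and 19.5% of those genes had 3 or more. LGR4, with 2 sites, stood at the percentile 81.0, and 26.5% of its genes of like length had 2 or more. Without the rank 8 site for which it was chosen, LGR4 had 1 site and stood at the percentile 62. The other 7 genes had no site, as did 37% to 56.0% of the genes of like length, so an empty window was common.

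**Figure D1:**
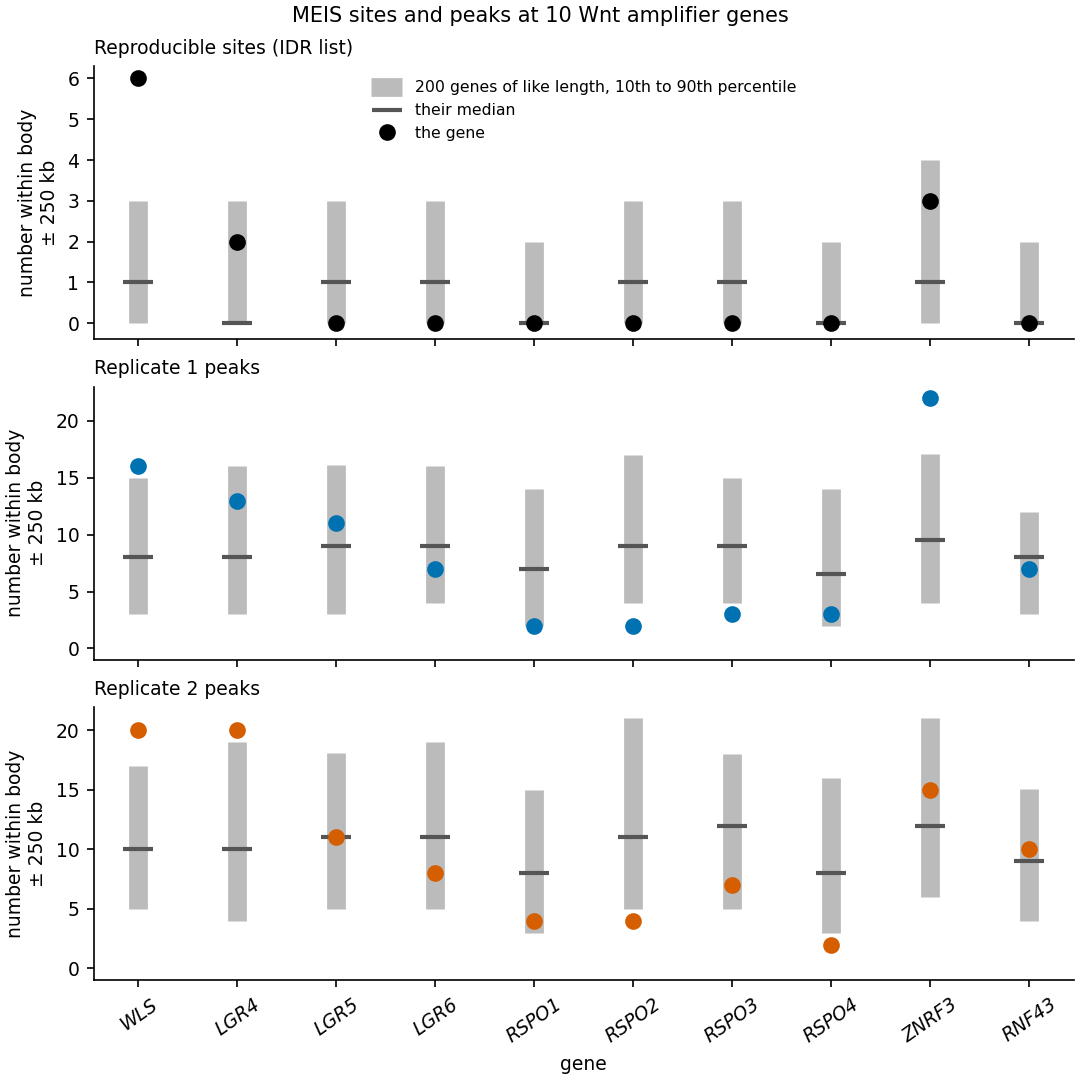
Number of reproducible sites, replicate 1 peaks and replicate 2 peaks (vertical axes) in the body of each gene extended by 250 kb on each side, for the 10 genes (horizontal axis). Points are the genes, grey bars span the 10th to 90th percentile of 200 protein-coding genes of like body length, and dashes are their medians: WLS, with 6 sites, lies above its bar in all 3 panels.

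WLS (ENSG00000116729, chr1:68564156-68698803, minus strand) spans 134.6 kb. Its strongest site, which is also the strongest of the whole list, covered chr1:68606197-68608194, and its −log10 p reached 3132.28 and 3008.3 in the first and second replicate, with folds over the local background of 152 and 288. Both replicates placed the summit on the same base, 91.3 kb downstream of the canonical TSS in intron 10, and both ranked the peak first. The summit was 3.11 kb from the nearest annotated start of any WLS transcript, and it also lay within the long non-coding RNA gene GNG12-AS1. Measured by canonical starts alone, the nearest protein-coding gene was not WLS but DIRAS3, a small GTPase gene, at 90.6 kb.

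A further group of 3 WLS sites was weaker by more than a factor of 10 in −log10 p but still ranked within the first 500. Site 2, 87.4 kb upstream of WLS, reached 171 in replicate 1 but 296 in replicate 2. Site 4, also upstream at 61.6 kb, had 145 and 138. Both upstream sites had WLS as their nearest protein-coding gene. Site 3 had 161 and 146 but lay 242 kb beyond the 3′ end of WLS, 22.6 kb from the TSS of GNG12, which encodes a G protein gamma subunit. Its place in the WLS window therefore rests on the width of the window.

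The last 2 WLS sites were near the middle and the lower end of the list. Site 5 in intron 2, 59.0 kb from the canonical TSS and 2.89 kb from another WLS start, had a −log10 p of 30.8 and 58.7 and ranked 2451. Site 6, 133 kb upstream, had 17.9 and 17.2 and ranked 4280, and its nearest protein-coding gene was RPE65, the retinoid isomerase of the retinal pigment epithelium, at 84.1 kb. The 6 sites spanned 510 kb, and neighbouring sites were 25.9 to 285 kb apart. DEPDC1, DIRAS3 and RPE65 were the other protein-coding genes in the window of WLS, and each of them had 4 sites in its own window. For RPE65 and DEPDC1 not all of the 4 were WLS sites, since their windows reach past that of WLS. The windows overlap, so most of the WLS sites cannot be given to a single gene by position.

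LGR4 (ENSG00000205213, chr11:27387508-27494337, minus strand) encodes an R-spondin receptor expressed in many tissues, and its 2 sites lay in intron 1. Site 1 covered chr11:27465008-27467082, 27.8 kb downstream of the canonical TSS. Replicate 1 gave it a −log10 p of 1427.62 and rank 13, replicate 2 gave it 1847.81 and rank 7, and its folds were 67.9 and 184. The fold was thus 2.71 times as high in replicate 2, near the 90th percentile of 2.78 over all sites, for which the median ratio was 1.80. Site 2, at 11.9 kb and 15.9 kb from site 1, had a −log10 p of 24.4 in both replicates and ranked 3083. Both sites had LGR4 as their nearest protein-coding gene, although CCDC34, LIN7C and BDNF also counted them in their own windows.

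ZNRF3 (ENSG00000183579, chr22:29279560-29453476, plus strand), a ligase that removes Frizzled, had 3 sites in the lower part of the list by strength, ranked 2882, 3723 and 3809. Site 3, the only 1 inside the gene, lay in intron 1 59.7 kb past the canonical start, and reached 19.4 in replicate 1 but 26.1 in replicate 2. Site 2, with 24.2 and 19.8, lay 45.7 kb beyond the 3′ end, in intron 3 of KREMEN1. Site 1, with 36.0 and 26.2, lay 145 kb beyond the end and 3.09 kb upstream of the TSS of EMID1. KREMEN1, whose product is a co-receptor for the Wnt antagonists of the Dickkopf family, had the same 3 sites in its own window. Position alone thus leaves 1 of the 3 sites in ZNRF3 and places the others at its neighbours.

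**Figure D2:**
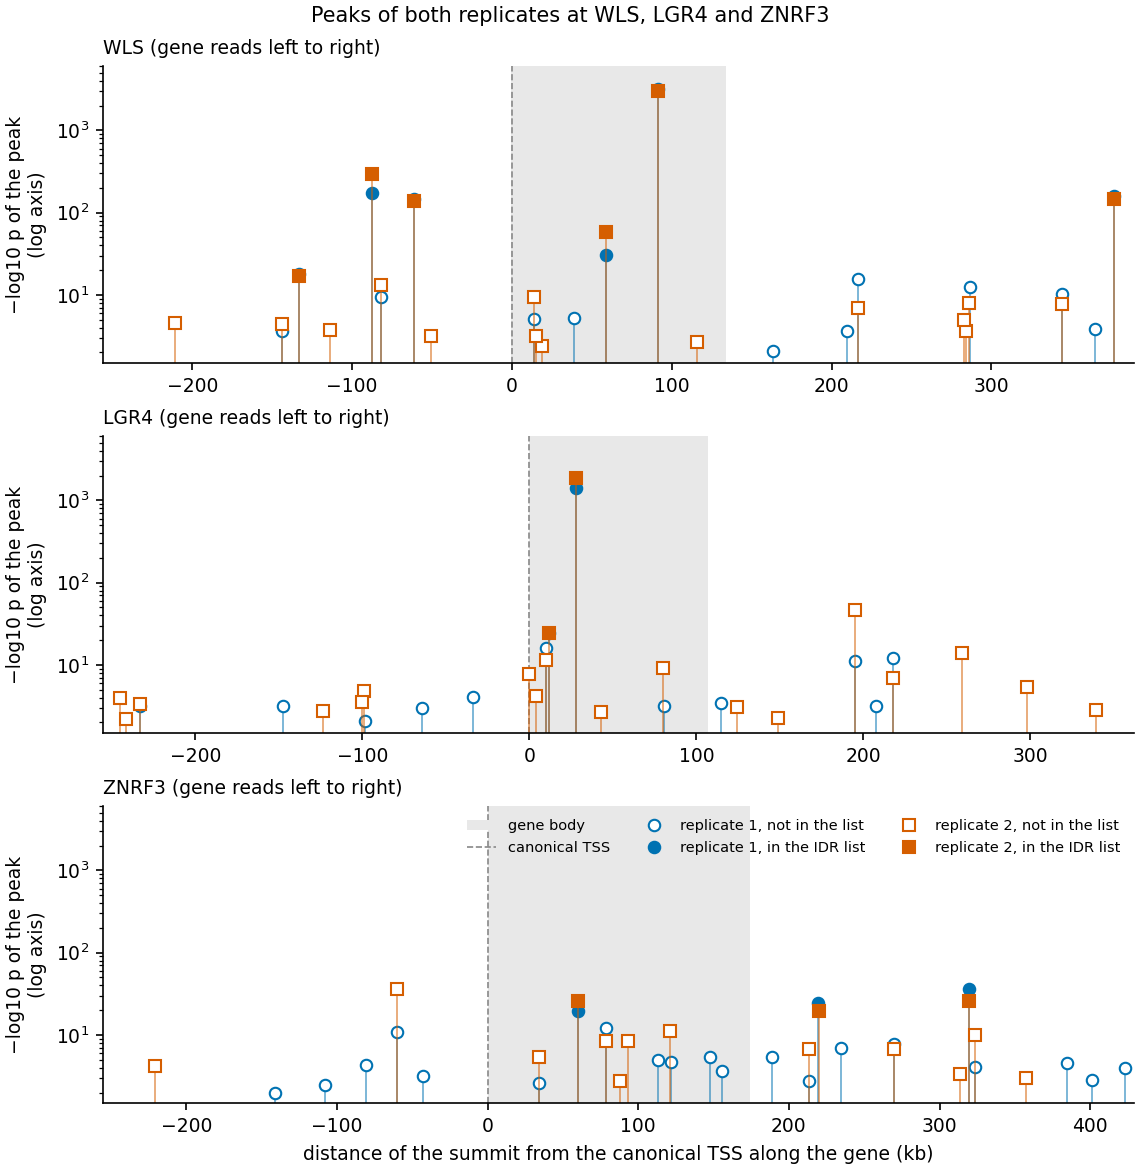
Strength of each peak (−log10 p on a log axis) against the distance of its summit from the canonical TSS along the gene (kb) at WLS, LGR4 and ZNRF3, with blue circles for replicate 1, orange squares for replicate 2, filled symbols for peaks in the IDR list and grey for the gene body. The highest peaks stand 91.3 kb inside WLS and 27.8 kb inside LGR4, and the filled symbols of ZNRF3 stay between 19.4 and 36.0.

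The median −log10 p of the 11 sites was 30.8, close to the 29.3 of all 5169 sites, so the few strong sites of WLS and LGR4 stood beside others of ordinary strength. At all 11 sites the value that the list gives was the lower of the replicate values. Replicate 2 had the higher fold enrichment at every one of them, with a ratio of 1.33 (ZNRF3 site 2) to 2.71 (LGR4 site 1), and over all sites the median fold was 6.38 in replicate 1 and 11.5 in replicate 2. The study describes alternative washes of the beads, which of them each replicate received is not given in the sources used here, and the part of washing or depth in this difference was not tested. The −log10 p, with medians of 33.8 and 39.9 over all sites, did not lie to one side at these sites, being higher in replicate 1 at WLS sites 1, 3, 4 and 6, LGR4 site 2 and ZNRF3 sites 1 and 2. Summits of both replicates lay 0 to 37 bp apart at these sites, against a median of 11 bp over the list.

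**Figure D3:**
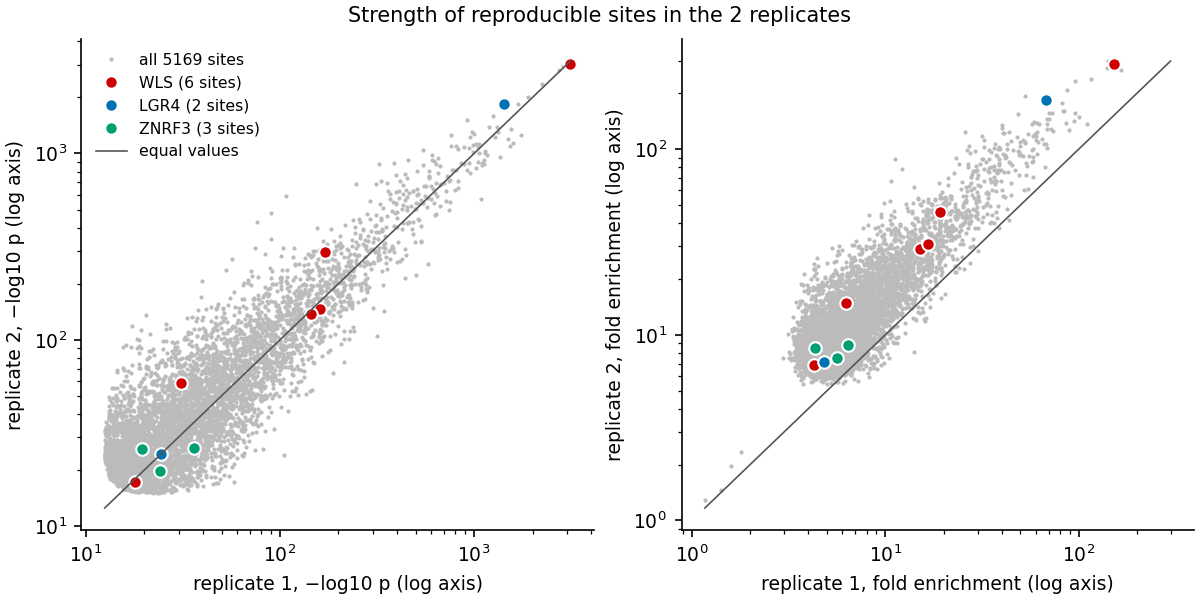
The −log10 p (left) and fold enrichment (right) of all 5169 sites in replicate 1 (horizontal) and replicate 2 (vertical) on log axes, with the sites of WLS, LGR4 and ZNRF3 in red, blue and green and a line of equal values. All 11 coloured points lie above the line for fold enrichment, while for −log10 p they lie on both sides of it.

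The other receptors had peaks but no reproducible site, and their nearest sites lay 476 kb (LGR5) and 442 kb (LGR6) from the canonical TSS. LGR5 had 11 peaks in each replicate, of which 7 in each lay in the gene body. In the body of LGR5, 4 peaks were shared by the replicates, meaning that they overlapped by at least 1 bp. The strongest of replicate 1, 29.7 kb from the TSS, had a −log10 p of 9.57 and held 3 copies of TGACAG in 500 bp, and the overlapping peak of replicate 2 had 6.55. The strongest of replicate 2 had 8.69 at 134 kb, against 5.37 in replicate 1. These are low values: the weakest site of the IDR list had 12.5 in replicate 1 and the lowest in replicate 2 was 15.1. LGR6 had 7 and 8 peaks, of which 2 were shared, both outside the gene, at 247 kb upstream (8.40 and 4.70) and at 155 kb downstream of the TSS (3.62 and 6.29).

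The R-spondin genes, which encode the secreted ligands, had the fewest peaks. In replicate 1 their windows held 2 (RSPO1), 2 (RSPO2), 3 (RSPO3) and 3 peaks (RSPO4), which put them at the percentiles 8.25, 4.0, 8.25 and 15.75 of genes of like length. In replicate 2 they held 4, 4, 7 and 2 peaks, at the percentiles 15.25, 5.75, 20 and 4.0. In both replicates all 4 ligand genes were thus at or under the percentile 20 of their length class. Low counts were not particular to them, since ZC3H12A near RSPO1 and FAM110A near RSPO4 had 2 peaks in each replicate. Other neighbours had more, such as INPP5B near RSPO1 with 7 and 13 and EIF3E near RSPO2 with 7 and 7.

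RSPO1 and RSPO2 had no shared peak. The strongest peaks at RSPO1 reached 3.94 in replicate 1 and 4.01 in replicate 2 on the −log10 p scale, and those at RSPO2 had 3.90 and 7.79. RSPO3 had 1 shared peak, 66.5 kb upstream, with 17.0 in replicate 1, the strongest at any ligand gene, but 7.53 in replicate 2. RSPO4 had 2 shared peaks, the stronger of them 20.2 kb upstream with 8.71 and 11.9. The nearest reproducible sites were 378 kb (RSPO1), 677 kb (RSPO2), 966 kb (RSPO3) and 2459 kb (RSPO4) from the TSS.

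RNF43, the paralogue of ZNRF3, had no site, but had peaks that reached the strength of listed sites in a single replicate. It had 7 peaks in replicate 1 and 10 in replicate 2, and 5 were shared. The strongest in replicate 2 lay 64.3 kb downstream of the TSS, with a −log10 p of 33.0 and 2 copies of TGACAG, but had 12.02 in replicate 1. It lay just past the 3′ end of the gene, nearest to the start of SUPT4H1. The strongest in replicate 1 lay 139 kb upstream, with 19.6, but had 9.02 in replicate 2. Each was above the lowest listed value in 1 replicate and below it in the other. With as many of the strongest peaks of a single replicate as there were sites, RNF43 counted 1, and it was the peak downstream for replicate 2 and the peak upstream for replicate 1.

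**Figure D4:**
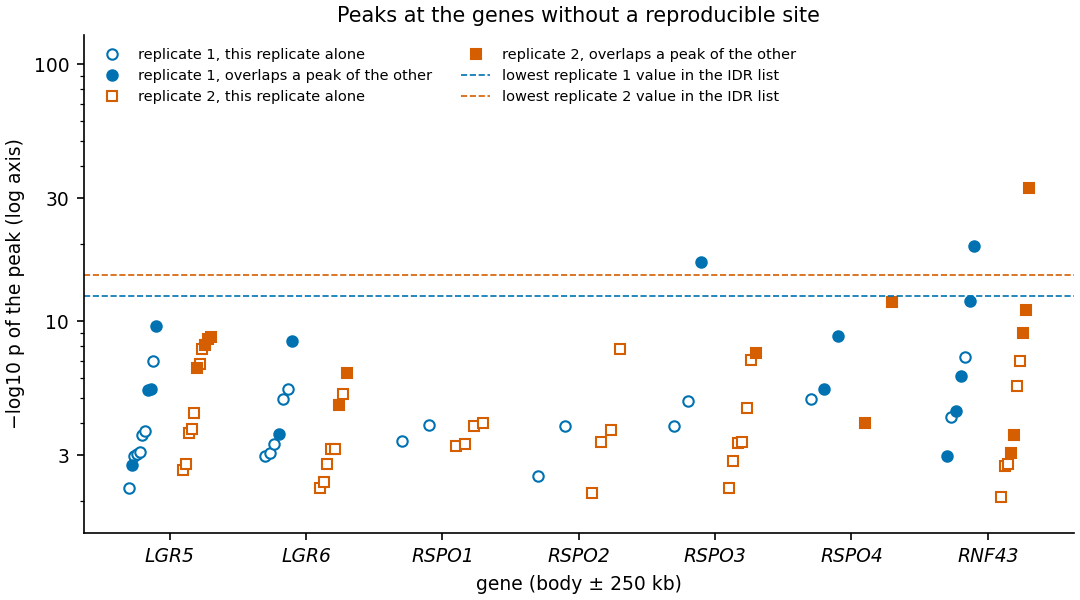
The −log10 p (log axis) of every peak at the 7 genes without a reproducible site, with replicate 1 as blue circles, replicate 2 as orange squares, filled symbols for peaks that overlap a peak of the other replicate, and dashed lines at the lowest value of each replicate in the IDR list (12.5 and 15.1). Only RSPO3 and RNF43 reach a line, and each of their peaks does so in 1 replicate.

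Over all 10 windows, replicate 1 had 86 peaks and replicate 2 had 101, and every gene had at least 1 in each, as did 97.1% of all protein-coding genes in replicate 1 and 98.0% in replicate 2. Of these, 44 of the 86 (51.2%) overlapped a replicate 2 peak, against 49.0% of all replicate 1 peaks, and 44 of the 101 (43.6%) overlapped a replicate 1 peak, against 38.0% of all replicate 2 peaks. By role, 12 peaks were shared at WLS, 14 at the receptors, 15 at the ligases and 3 at the ligands, of 16, 31, 29 and 10 replicate 1 peaks. The replicate 1 peaks had a median −log10 p of 4.82 (4.78 over its whole list) and the replicate 2 peaks 4.70 (4.68), so most peaks at these genes were weak, as in the lists as a whole.

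ZNRF3 and LGR4 had many peaks in 1 or both replicates beyond their few sites. ZNRF3 had 22 peaks in replicate 1 (percentile 95.25) but 15 in replicate 2 (percentile 64.5), with 10 shared. LGR4 had 13 (79.5) and 20 (91.75), with 8 shared. WLS had 16 (92.75) and 20 (95.25), with 12 shared. Some shared peaks outside the list were strong in replicate 2 alone. At LGR4, 195 kb downstream of the TSS, a peak with 4 copies of TGACAG reached a −log10 p of 46.0 in replicate 2 but 11.2 in replicate 1, and 60.2 kb upstream of ZNRF3 a peak had 36.4 and 10.7.

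Near the canonical TSS, within 5 kb, 1 of the 10 genes had a peak in replicate 1, which was LGR5, against 26.7% of all protein-coding genes. In replicate 2 it was again 1 of 10, which was LGR4, against 26.8%. The LGR5 peak lay 764 bp downstream of the TSS with a −log10 p of 3.03, and the stronger LGR4 peak lay 145 bp upstream with 7.66. Neither was called in the other replicate, so no peak within 5 kb of the canonical TSS of any of the 10 genes was shared.

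The MEIS consensus TGACAG was present on either strand within 500 bp centred on the summit at 6 of the 11 sites (54.5%, Wilson 95% interval 28.0% to 78.7%, which covers counting error alone), against 58.3% of all sites. It was found at 5 of the 6 WLS sites, 1 of the 2 LGR4 sites and none of the 3 ZNRF3 sites. At all 6 sites that had it, a copy lay within 50 bp of the summit. That is 6 of the 11 sites, against 39.5% of all sites. Of the 3012 sites in the list with TGACAG, 2044 had it so close. The 50 bp limit was not planned and no interval was computed for it. LGR4 site 1, for which that gene was chosen, is among the 6, so no excess is read from this count. The centre of the nearest copy lay 5, 2, 0, 17 and 20 bp from the summit at WLS sites 2 to 6. The capitals in the sequences of WLS sites 2 to 6 mark these copies. LGR4 site 1 had 3 copies, centred 110 and 97 bp before the summit and 4 bp after it.

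The strongest site, WLS site 1, held no TGACAG in its 500 bp. The shorter core GACAG, which is TGACAG without its first base, was centred 3 bp from its summit. ZNRF3 site 1 likewise had a GACAG 1 bp from the summit. The search for the shorter core was added after the sequences had been seen. With it, 8 of the 11 sites (72.7%) had a match within 50 bp, against 54.0% of all sites, and 2 of the 5 sites without TGACAG had one, against 24.2% of the 2157 such sites in the list.

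PBX proteins are TALE partners of MEIS, and their consensus TGATGG was found at 4 of the 11 sites, against 26.2% of all sites. At all 4 it lay within 50 bp of the summit. That is 4 of the 11 sites, against 8.28% of all sites. Of the 1353 sites in the list with the PBX consensus, 428 had it so close. The 50 bp limit was not planned and no interval was computed for it. LGR4 site 1, for which that gene was chosen, is among the 4, so no excess is read from this count. The 4 sites were WLS site 5, LGR4 site 1, which had 2 copies, and ZNRF3 sites 1 and 3, whose copies were centred 11 and 10 bp after the summit. The composite PBX-MEIS motif, a TGA followed by T or G and then TGACAG, was found at 1 site, LGR4 site 1, where it overlaps the first TGACAG, against 4.93% of all sites. ZNRF3 sites 1 and 3 thus had a PBX consensus near the summit without a MEIS consensus.

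Consensus letters of other factors active in neural or stem cells were searched in the same windows. The TEAD consensus GGAATG was found at 6 of the 11 sites, against 38.2% of all sites, and at both LGR4 sites. The SOX consensus ACAATG was found at 3, against 39.9%, and the LHX consensus TAATTA at 2, both at WLS, against 18.2%. The AP-1 consensus TGACTCA was at none, for which the Wilson interval reaches 25.9%, against 11.8% of all sites. With 11 sites, each of these intervals includes the share of all sites. The median GC content of the 500 bp was 43.0% at the 11 sites and 42.0% over the list, with the extremes at WLS site 6 (31.4%) and ZNRF3 site 1 (59.6%).

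**Figure D5:**
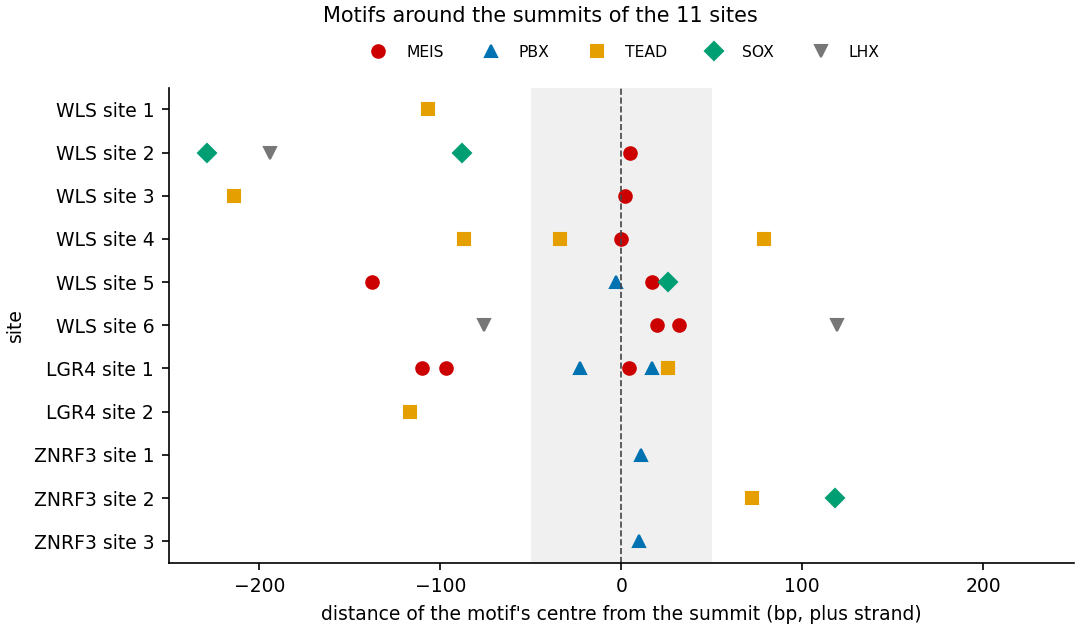
Position of each MEIS, PBX, TEAD, SOX and LHX consensus relative to the summit (bp, horizontal) at the 11 sites (vertical), with the 50 bp on either side of the summit shaded. A MEIS consensus lies in the shaded band at 6 sites, and WLS site 1 has none in the window.

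Among all peaks in the 10 windows, TGACAG was more frequent in the shared ones, as it was in the whole lists. In replicate 1 it was present at 24 of 44 shared and 9 of 42 unshared peaks (54.5% and 21.4%), against 53.3% and 38.5% over all peaks. In replicate 2 it was present at 28 of 44 shared and 18 of 57 unshared peaks (63.6% and 31.6%), against 53.4% and 41.4% over all peaks. Over all peaks of the windows the share was 38.4% in replicate 1 and 45.5% in replicate 2, against 45.8% and 45.9% in the whole lists.

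A list of 31 other Wnt pathway genes that act at the receptor, in ligand export or in feedback was set beside the 10. Of these, 17 (54.8%) had at least 1 reproducible site, against 47.7% of all protein-coding genes. Their median was 1 and their mean 1.13 sites per gene. For the 10 genes the median was 0 and the mean 1.10, and for all protein-coding genes 0 and 0.846. The mean of the 10 genes counts the sites for which WLS and LGR4 were chosen, so no excess is read from it. Of the 31 genes, 4 had 3 or more sites, against 1750 of the 20090 protein-coding genes. The 4 genes were SFRP1 (5), SFRP2 (4), DKK2 (3) and KREMEN1 (3), and the 3 sites of KREMEN1 are those of ZNRF3. Most of the 31 genes are inhibitors or feedback genes, and inhibitors of the same kind, among them SFRP4, SFRP5, WIF1, NOTUM and TRABD2B, had no site. The strongest at SFRP1, a secreted Wnt-binding protein, lay 97.4 kb upstream with a −log10 p of 125, and that at SFRP2 lay 140 kb upstream with 80.3. PORCN, the enzyme that attaches the lipid to Wnt and so acts just before WLS, had no site, and neither did the co-receptors LRP5 and LRP6.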

How the data were processed

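MEIS ChIP-seq peaks of 2 replicates from hNSC were used, and the samples were grouped by their titles. The labels give replicates 1 and 2 and name no batch. The methods give 2 batches of cells processed in parallel, without saying which sample came from which batch. No sample was tested against another. The authors trimmed paired reads of 36 bp with cutadapt 1.16, mapped them to GRCh37 with Bowtie2 2.3.0, filtered alignments in SAMtools 1.2 (minimum mapping quality 30) and dropped duplicates in Picard 2.15.0. Peaks were then called by the authors in each replicate separately against Input with MACS2 (version not given in the sources used here) at a p-value of 0.01 and combined the lists with IDR 2.0.3. The mapping filter removes reads from repeats, so sites in them can be missed.

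The deposited peak lists hold a fold enrichment (a linear ratio), a −log10 p-value, a −log10 q-value, a score and a summit offset, and the deposited IDR list holds a scaled IDR score, a −log10 p and a summit. A further 8 columns of per-replicate values in the IDR list were not used here, and replicate values of a site came from the strongest overlapping peak. Peak lists carry no read counts, so the depth per sample is unknown and no interval covers it.

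The members and the gene lists were chosen with earlier results of these data known. All results are descriptions with no test. Every one of the 10 genes is named, with each of its sites, or its strongest peaks where it has none. From the other Wnt genes, those with 3 or more sites are named. PORCN, LRP5, LRP6 and the inhibitors without a site were named after their values were seen, as were shared peaks at LGR4 and ZNRF3 outside the list. Summits were counted in gene bodies extended by 250 kb (GENCODE 44, canonical transcripts) and compared with 200 protein-coding genes of most similar body length, ties counting 0.5. Motifs were searched on both strands in 500 bp of GRCh37 sequence centred on summits, with Python 3.11.15, pandas 2.3.3, numpy 2.4.6, scipy 1.17.1 and pysam 0.24.0. The counting and motif code was tested on simulated data. Alternatives changed the window, the IDR threshold, the assignment, the overlap, the peak threshold, the motif window, the number of like genes and the replicates used.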

Additional observations from a re-analysis of the deposited data

How the results depend on the processing

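No paired analysis was possible because there is 1 group of ChIP samples and no result comes from a test. Extending the window to 500 kb gave 8 genes with a site (against 67.7% of all protein-coding genes) and 24 sites. The gene bodies alone held 5 sites, and an IDR of 0.001 or less left 7. The share of replicate 1 peaks at these genes shared with replicate 2 was 38.4% with summits within 100 bp. It was 74.4% with both lists at a −log10 p of 5 or more. The shares over all replicate 1 peaks under these rules were not computed, so neither value has a background here. Without replicate 1 or without replicate 2, taking the top 5169 peaks of the other list, 4 genes had a site in either case. The share of all protein-coding genes with a site was 45% without replicate 1 and 49.5% without replicate 2. RNF43 was the added gene, and both settings gave 12 sites in all, of which 58.3% held TGACAG. The share over all top 5169 peaks of each list was not computed. The equal 58.3% given earlier is for the reproducible sites and is not the background of these settings. The settings without a replicate and the remaining alternatives of the summary results, 16 in all, moved them by less than a factor of 1.5 or within the interval. For single genes, 60 site counts stayed and 12 moved, while 35 length percentiles stayed and 57 moved. WLS stood between the percentiles 95.75 and 100, but each of these counts the site that chose WLS. Without that site it stood at 99.5 in the main window and at 87.25 in the gene body alone. RNF43 ran from 25.75 to 91.75. The GACAG search and the counts without the choosing site were added after seeing the data. The counts of motifs within 50 bp of the summit were not planned. The unknown depth limits what an empty window shows.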
